A study of Mus musculus with 14 samples.

Results

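The 10 genes described here, S100a8, S100a9, Retnlg, Csf3r, Mmp8, Mmp9, Fpr1, Fpr2, Trem1 and Clec4d, are used as markers of neutrophils. They were picked by gene symbol, and all 10 were found among the 17656 genes measured. Their levels were read in the livers of 14 mice, 1 library per mouse, aged 8 weeks. WT mice and mice labelled Ythdf1-/- (called KO below), both on a C57BL/6 background, received saline or concanavalin A (ConA), a plant lectin that activates T cells and causes immune-mediated hepatitis, through the tail vein at 8 mg/kg, and livers were taken at 8 h. Saline was given to 3 WT and 3 KO mice, and ConA to 4 mice of each genotype. The study describes the knockout as not confined to 1 cell type. The values were TPM (a length-adjusted share of all transcripts in a library), which allow levels of different genes to be compared. They hold no read numbers, and the precision that depth gives to a low value is unknown.

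Neutrophils are made in the bone marrow, circulate in the blood and enter inflamed tissue within hours. They leave the marrow under granulocyte colony-stimulating factor (G-CSF), sense bacterial and mitochondrial peptides with formyl peptide receptors, and release granules that hold proteases and antimicrobial proteins. In ConA hepatitis they are among the first leukocytes to gather in the liver. Monocytes also make several of these products, and in whole liver RNA more neutrophils and more RNA per neutrophil cannot be told apart.

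S100a8 and S100a9, which encode both subunits of calprotectin, lie on chromosome 3 of GRCm38.p6 at chr3:90669071-90670034 on the plus strand and chr3:90692630-90695721 on the minus strand. They run toward each other, with 22595 bases and no other RefSeq gene between them. Fpr1 (chr17:17876471-17883939, minus strand) and Fpr2 (chr17:17887824-17893952, plus strand) are also neighbours, with 3884 bases and no gene between them. Trem1 lies elsewhere on chromosome 17 (chr17:48232713-48246927), and the others are on their own chromosomes, Retnlg at chr16:48872608-48874498, Csf3r at chr4:126023441-126044975, Mmp8 at chr9:7558429-7568486, Mmp9 at chr2:164940326-164955850 and Clec4d at chr6:123262107-123275268. The promoters of S100a8 and S100a9 are shown because these genes had the highest levels of the 10 after ConA and varied together among the ConA livers. Both sequences are from RefSeq (GRCm38.p6), are the 250 bases before the annotated start, and read 5′ to 3′ on the strand of the gene. The capitals mark matches on either strand to a C/EBP motif (TTNNGCAA) or a PU.1 motif (GAGGAA), named after factors that act in myeloid differentiation.
S100a8 (chr3:90668821-90669070, plus strand): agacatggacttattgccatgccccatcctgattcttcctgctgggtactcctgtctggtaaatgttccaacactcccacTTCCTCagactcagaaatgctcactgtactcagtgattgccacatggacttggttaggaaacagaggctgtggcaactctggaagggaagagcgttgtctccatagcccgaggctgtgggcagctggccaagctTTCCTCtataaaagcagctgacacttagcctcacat
S100a9 (chr3:90695722-90695971, minus strand): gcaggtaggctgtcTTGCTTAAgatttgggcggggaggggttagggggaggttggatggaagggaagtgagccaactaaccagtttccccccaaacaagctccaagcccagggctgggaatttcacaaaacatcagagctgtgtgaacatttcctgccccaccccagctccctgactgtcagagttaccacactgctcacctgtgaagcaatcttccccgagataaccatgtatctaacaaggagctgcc
In S100a8 both capital stretches were PU.1 matches on the opposite strand, the nearer one beginning 36 bases before the start. The S100a9 window held 1 C/EBP match, beginning 236 bases before the start. A promoter was listed for 9 of the 10 members. The PU.1 letters were found in 6 of these 9 and in 23.3% of the 32851 promoters of the table, the C/EBP letters in 3 of 9 and in 9.56%, and a STAT motif (TTCCNGGAA) in 0 of 9 and in 0.913%. No match of 1 motif overlapped a match of another in these windows. These matches describe the letters only.

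The libraries differed in ways that touch the results. Replicates 2 and 3 of WT saline were close to identical. Across the 100 most variable genes of the KO saline livers, the median log2 ratio between them was 0.0857 in size, against 0.247 to 1.25 in the other 17 replicate pairs, so results against WT saline are also given with both averaged as 1 mouse. The libraries numbered 3 of both ConA groups had the lowest scaling factors of all libraries, 0.791 in WT and 0.847 in KO against 0.966 to 1.19 elsewhere. Ythdf1 mRNA was at 12.0 to 13.9 TPM in WT saline and 18.4 to 20.8 in KO saline livers, and after ConA at 18.7 to 25.6 in WT and 15.5 to 26.2 in KO. The level of the whole gene thus did not show a loss in KO. The study shows tail genotyping of the knockout line and YTHDF1 immunoblots in its bone marrow chimeras. For these libraries, every genotype difference below rests on the labels. Hepatocyte markers led every library (Alb, the serum albumin gene, was at 30310 to 87030 TPM), as the tissue label states.

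In livers of saline-treated mice the markers were close to the lower end of the scale. The summed TPM of the 10 genes was 5.27 to 12.0 in WT and 4.37 to 10.2 in KO. After ConA the sum was 326 to 571 in WT and 419 to 967 in KO, with no overlap with saline in either genotype. S100a8 and S100a9 made up 88.7% to 93.2% of the sum in ConA livers and 41.4% to 63.7% in saline livers. In WT, 9 of the 10 genes passed the test as higher after ConA, where 22% of all tested genes did and 31% were lower. In KO, 9 of 10 also passed as higher, where 33.9% of all tested genes did and 30.7% were lower. A gene was tested when it reached 1 TPM in at least as many livers as the smaller group had. Of the 10 members, 5 in WT (Retnlg, Mmp8, Mmp9, Trem1 and Clec4d) and 6 in KO (these and Fpr2) reached 1 TPM in no saline liver, so they entered the test through the ConA livers and had to differ. In each genotype, 9 of 10 members had every ConA liver above every saline liver, where 23.3% of all tested genes in WT and 32.8% in KO showed that. With no filter on low values the counts of calls were again 9 and 9, and with WT saline replicates 2 and 3 averaged the WT count was 9.

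**Figure D1:**
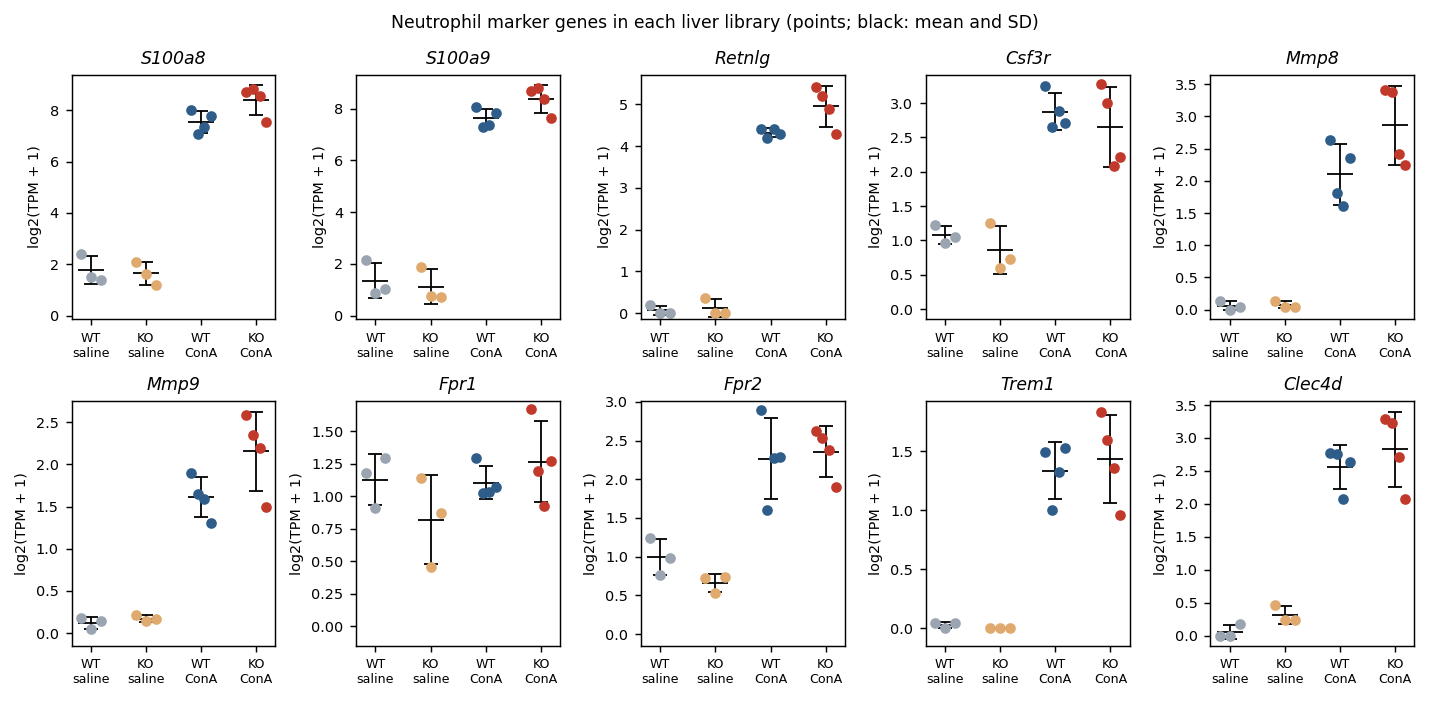
Level of each neutrophil marker gene in each of the 14 liver libraries, as log2(TPM + 1) on the vertical axis, by group. Points are livers, and black lines give the mean and SD of 3 saline or 4 ConA livers. Except for Fpr1, all ConA livers sit above all saline livers of the same genotype.

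S100a8 and S100a9 encode calcium-binding proteins that pair as calprotectin, which fills the neutrophil cytosol and acts on Toll-like receptor 4 once released. S100a8 was at 4.23, 1.86 and 1.64 TPM in WT saline livers and at 253, 134, 161 and 218 TPM in WT ConA livers. In KO it was at 3.30, 2.06 and 1.31 TPM after saline and at 420, 452, 378 and 186 TPM after ConA. Every ConA liver was far above every saline liver. The rise in S100a8 was 5.78 ± 0.29 (log2(TPM + 1) difference ± SE, 4 ConA and 3 saline livers) in WT (limma, Benjamini-Hochberg adjusted p = 8.31e-07) and 6.77 ± 0.30 in KO (adjusted p = 2.56e-08). The mean TPM was 74.4 times the saline mean in WT and 161 times in KO.

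S100a9 followed it closely, at 3.39, 0.85 and 1.02 TPM in WT saline and 265, 156, 167 and 226 TPM in WT ConA livers. In KO it was at 2.72, 0.67 and 0.63 TPM after saline and 417, 442, 329 and 197 TPM after ConA. The first saline liver of each genotype was the highest of its group for both genes, and the fourth KO ConA liver was the lowest of its group. S100a9 rose by 6.30 ± 0.31 in WT (adjusted p = 8.31e-07) and 7.26 ± 0.33 in KO (adjusted p = 3.00e-08). By size of the log2 difference it ranked 13 of 10768 tested genes in WT and 11 of 10988 in KO, and S100a8 ranked 20 and 17.

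Retnlg encodes resistin-like gamma, a secreted peptide found in mouse marrow and neutrophils. It was at 0.14, 0 and 0 TPM in WT saline and at 20.3, 17.2, 20.3 and 18.5 TPM in WT ConA livers. In KO it was at 0.29, 0 and 0 TPM after saline and at 41.7, 35.9, 28.4 and 18.6 TPM after ConA, a wider spread than in WT. The difference was 4.26 ± 0.14 in WT (adjusted p = 1.10e-07) and 4.83 ± 0.25 in KO (adjusted p = 7.76e-08).

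Mmp8 and Mmp9 encode proteases stored in granules. Mmp8 encodes neutrophil collagenase, and Mmp9 encodes gelatinase B, which cuts denatured collagen and basement membrane. Mmp8 was at 0 to 0.10 TPM in the 6 saline livers, at 5.17, 2.51, 2.04 and 4.10 TPM in WT ConA and at 9.59, 9.34, 4.35 and 3.72 TPM in KO ConA livers. Its difference was 2.04 ± 0.24 in WT (adjusted p = 0.000101) and 2.78 ± 0.28 in KO (adjusted p = 9.64e-06). Mmp9 was at 0.03 to 0.16 TPM in saline livers, at 2.72, 2.13, 2.02 and 1.48 TPM in WT ConA and at 5.0, 4.08, 3.59 and 1.82 TPM in KO ConA livers. Mmp9 rose by 1.49 ± 0.16 in WT (adjusted p = 5.17e-05) and 1.98 ± 0.23 in KO (adjusted p = 2.47e-05). For both genes no ConA liver reached down to a saline value, and the first 2 KO ConA livers were above all WT ConA livers.

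Among the receptors, Csf3r, the receptor for G-CSF, was present at baseline. It was at 1.33, 0.95 and 1.06 TPM in WT saline and 1.39, 0.52 and 0.66 TPM in KO saline livers. After ConA it was at 8.54, 5.28, 6.36 and 5.56 TPM in WT and 8.70, 6.98, 3.25 and 3.65 TPM in KO. KO ConA livers 3 and 4 were below all WT ConA livers, and liver 1 was just above them. Csf3r rose by 1.80 ± 0.18 in WT (adjusted p = 3.54e-05) and 1.78 ± 0.30 in KO (adjusted p = 0.000331), and its mean TPM was 5.78 and 6.59 times the saline mean. In the longest coding transcript of Csf3r, 88.5% of 50-base stretches were in no other gene.

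Fpr1 and Fpr2, neighbouring genes of related formyl peptide receptors, parted. Fpr2, which also binds the resolution protein annexin A1, was at 1.36, 0.70 and 0.97 TPM in WT saline and 6.44, 2.05, 3.83 and 3.89 TPM in WT ConA livers. In KO it was at 0.65, 0.44 and 0.66 TPM after saline and 5.18, 4.79, 4.19 and 2.72 TPM after ConA. All ConA livers were above the saline livers, with differences of 1.27 ± 0.27 in WT (adjusted p = 0.00349) and 1.70 ± 0.19 in KO (adjusted p = 2.03e-05). Only 62.8% of the 50-base stretches of Fpr2 were in no other gene, with Fpr3 and Fpr1 among those that share the rest, so its reads may be split among relatives.

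Fpr1 was the member that did not pass the test in either genotype. It was at 1.26, 0.88 and 1.45 TPM in WT saline and 1.45, 1.03, 1.05 and 1.10 TPM in WT ConA livers. In KO it was at 1.20, 0.37 and 0.83 TPM after saline and 2.19, 1.29, 0.90 and 1.42 TPM after ConA. The WT ranges overlapped in full, and in KO 3 of 4 ConA livers were above the saline range. The difference was -0.02 in WT (95% interval -0.35 to 0.30, adjusted p = 0.913) and 0.45 in KO (-0.02 to 0.91, adjusted p = 0.0859). The KO value passed the threshold in 4 of the alternatives, among them the fits without KO ConA replicate 3 (0.56, adjusted p = 0.0349) and without KO saline replicate 1 (0.60, adjusted p = 0.0481).

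Trem1 and Clec4d encode activating surface receptors. Trem1 amplifies inflammatory signals through the adaptor encoded by Tyrobp, and Clec4d is a C-type lectin that pairs with the product of Clec4e. Trem1 was at 0.03, 0 and 0.03 TPM in WT saline and 1.81, 1.0, 1.5 and 1.89 TPM in WT ConA livers, a difference of 1.31 ± 0.15 (adjusted p = 0.000103). In KO it was listed at 0 in all 3 saline livers and was at 2.57, 2.02, 1.57 and 0.94 TPM after ConA (adjusted p = 7.89e-05), and no fold is given against that group. Clec4d was at 0, 0 and 0.13 TPM in WT saline, 0.38, 0.18 and 0.18 TPM in KO saline, 5.82, 5.77, 3.22 and 5.23 TPM in WT ConA and 8.75, 8.41, 5.56 and 3.20 TPM in KO ConA livers. Its difference was 2.50 ± 0.19 in WT (adjusted p = 8.37e-06) and 2.51 ± 0.27 in KO (adjusted p = 1.41e-05), but with 0.1 in place of 1 added to TPM it was 5.24 in WT and 4.19 in KO. Both receptors stood clear of saline in every ConA liver, and the fourth KO ConA liver was the lowest of its group for both.

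Over the members, the median log2 difference was 1.92 in WT and 2.25 in KO (2.51 in KO without Trem1), beside -0.07 and 0.07 over all tested genes. Low genes have small differences on this scale because 1 was added to each TPM value.

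**Figure D2:**
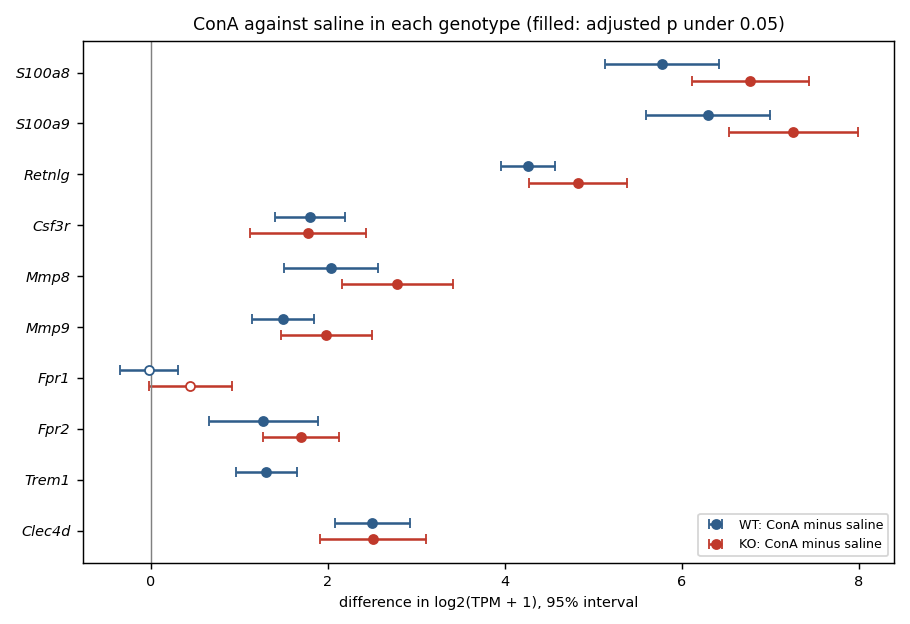
Difference between ConA and saline livers in log2(TPM + 1) with its 95% interval, in WT (blue) and KO (red), for each marker gene. Filled points passed the test and open points did not, and Trem1 in KO is left out because it was listed at 0 in KO saline. The differences run from -0.02 for Fpr1 to 7.26 for S100a9.

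Before ConA, the question was whether the genotypes already differed. Of the 10 members, 4 (S100a8, S100a9, Csf3r and Fpr1) were high enough to be tested between KO saline and WT saline livers. Of these, 0 passed the limma test, where 19.2% of all tested genes were called, and 0 had an unadjusted p under 0.05, where 38.8% of all tested genes did. That background rested on the near-identical WT libraries. With them averaged, 0.459% of genes were called, and again 0 members. The differences were -0.13 for S100a8 (95% interval -0.84 to 0.59), -0.23 for S100a9 (-1.21 to 0.74), -0.21 for Csf3r (-0.64 to 0.21) and -0.31 for Fpr1 (-0.75 to 0.14). The intervals for the calprotectin genes were wide, and both estimates turned positive without WT saline replicate 1 (0.18 for S100a8 and 0.16 for S100a9). The other 6 members reached 1 TPM in too few saline livers to be tested. Among them Fpr2 was at 0.44 to 0.66 TPM in KO saline against 0.70 to 1.36 in WT saline livers. Clec4d was at 0.18 to 0.38 TPM in KO against 0 to 0.13 in WT. These low ranges did not overlap, in opposite directions, while those of Retnlg, Mmp8, Mmp9 and Trem1 did. How many of all genes separate in this way was not counted, so no genotype difference is read from these ranges.

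After ConA, 9 of the 10 markers had higher mean levels in KO than in WT livers on the log scale, but 0 of 10 passed the limma test at an adjusted p under 0.05, where 0.428% of all tested genes did. Before adjustment, 5 members (S100a8, S100a9, Retnlg, Mmp8 and Mmp9) had p under 0.05, beside 16.7% of all tested genes. The median difference over the members was 0.40, beside 0.05 over all tested genes. The comparison shares its ConA livers with those above, so the values are not independent of them. Of the 45 genes called in all, 80.0% were higher in KO, and 48.0% of the 25 called after each library was rescaled to its median ratio to the other libraries.

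S100a8 had the largest difference of the members, 0.87 ± 0.28 (95% interval 0.24 to 1.49, limma adjusted p = 0.165). Its mean was 359 ± 119 TPM (SD, n = 4) in KO ConA and 192 ± 54.2 TPM (SD, n = 4) in WT ConA livers. KO ConA livers 1 to 3 were above all WT ConA livers, and the fourth, at 186 TPM, was within the WT range. Without that liver the difference was 1.16 (adjusted p = 0.106). Over all alternatives it stayed between 0.71 and 1.16, with adjusted p from 0.0997 to 0.355. S100a9 differed by 0.73 (0.17 to 1.3, adjusted p = 0.192), and again 3 of 4 KO livers were above the WT range.

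Mmp8 was 0.76 higher (0.06 to 1.46, adjusted p = 0.260), Retnlg 0.63 higher (0.14 to 1.11, adjusted p = 0.192) and Mmp9 0.54 higher (0.02 to 1.06, adjusted p = 0.274) in the KO livers. For Retnlg and Mmp9, 3 of 4 KO livers were above the WT range, and for Mmp8 it was 2 of 4. Among the receptors the estimates were smaller than for these genes, 0.26 for Clec4d (-0.35 to 0.88), 0.16 for Fpr1 (-0.22 to 0.55), 0.10 for Trem1 (-0.36 to 0.56) and 0.09 for Fpr2 (-0.50 to 0.68), and that for Csf3r was -0.23 (-0.83 to 0.37). All 5 receptor intervals held 0 and their adjusted p-values ran from 0.684 to 0.902. Whether the receptors differ from the other members was not tested.

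**Figure D3:**
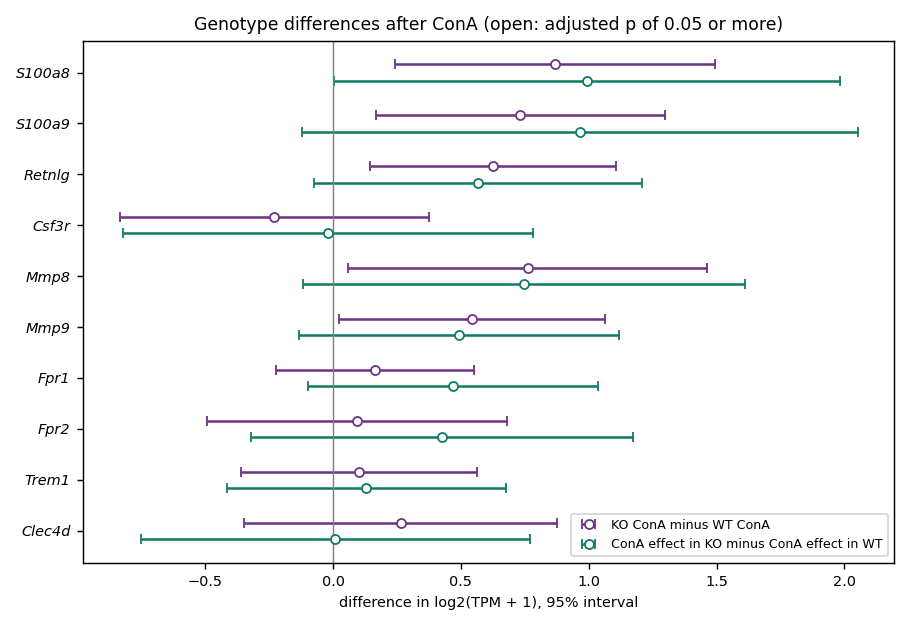
Difference between KO ConA and WT ConA livers (purple) and difference between the ConA effects of both genotypes (green), in log2(TPM + 1) with 95% intervals, for each marker gene. All points are open because 0 of 10 members passed the test in either comparison, and the S100a8 estimates are 0.87 and 0.99.

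The interaction, that is the ConA effect in KO minus that in WT, was tested over all 14 livers. Of the 10 members 0 passed the limma test, where 4.78% of all tested genes were called. Before adjustment 1 member, S100a8, had a p just under 0.05, where 25.3% of all tested genes did. S100a8 had an estimate of 0.99 (95% interval 0.00 to 1.98, adjusted p = 0.196) and S100a9 of 0.96 (-0.12 to 2.05, adjusted p = 0.246), followed by Mmp8 at 0.75 (-0.12 to 1.61), Retnlg at 0.57 (-0.08 to 1.21), Mmp9 at 0.49 (-0.13 to 1.12), Fpr1 at 0.47 (-0.10 to 1.03), Fpr2 at 0.43 (-0.32 to 1.17) and Trem1 at 0.13 (-0.42 to 0.67). Clec4d was at 0.01 (-0.75 to 0.77), and at -1.05 with 0.1 added to TPM, and Csf3r was at -0.02 (-0.82 to 0.78). The median over the members was 0.48, beside 0.14 over all tested genes, and rescaling each library moved the latter to 0.03. With WT saline replicates 2 and 3 averaged, 0.243% of all genes were called and 0 members.

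The members were also set against S100a8 within each ConA liver, as TPM relative to that of S100a8, which does not depend on how much of a library the rest of the liver takes. S100a9 was at 103% to 116% of S100a8 in WT ConA and at 87.2% to 106% in KO ConA livers, so both calprotectin genes kept nearly equal levels in all 8. Retnlg was at 8.02% to 12.8% in WT and 7.52% to 10.01% in KO, and Mmp8 at 1.27% to 2.04% and 1.15% to 2.28%. These ranges overlapped. Csf3r was at 3.37%, 3.94%, 3.95% and 2.55% of S100a8 in WT ConA and at 2.07%, 1.54%, 0.860% and 1.96% in KO ConA livers. Fpr2 was at 1.53% to 2.54% in WT and 1.06% to 1.46% in KO, and Trem1 at 0.714% to 0.932% and 0.416% to 0.611%. For these 3 of 9 members all KO ConA livers were below all WT ConA livers, where 9% of all tested genes showed that. The other 6 overlapped, and Clec4d came near, at 2.0% to 4.31% in WT and 1.47% to 2.08% in KO. S100a8 was the member with the largest genotype difference, so a member with a difference near 0 is lower in KO as a ratio, and these values restate the differences above. The ratio carries the error of S100a8 itself and was given no test.

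**Figure D4:**
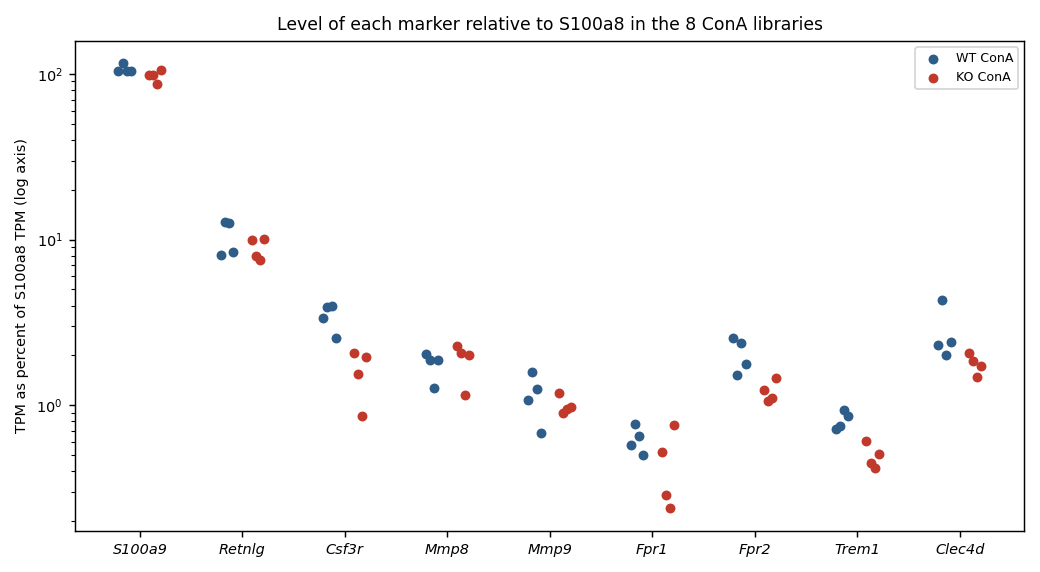
TPM of 9 marker genes as a percent of the TPM of S100a8 in the same liver (log axis), in 4 WT ConA (blue) and 4 KO ConA (red) livers, 1 point per liver. S100a9 stays near 100% in both, while Csf3r, Fpr2 and Trem1 are lower in all KO ConA livers, and the other ranges overlap.

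Among the 8 ConA livers the markers varied together. WT ConA liver 1 was the highest of its group for 8 of the 10 members and liver 2 the lowest for 7. In KO ConA, liver 1 was the highest for 8 and liver 4 the lowest for 8. As a description over 8 livers of 2 genotypes, Pearson's r between log2(TPM + 1) of 2 members ran from 0.227 (S100a8 and Csf3r) to 0.992 (S100a8 and S100a9), with a median of 0.693 over 45 pairs. Retnlg and Mmp9 (r = 0.940) and S100a9 and Mmp8 (r = 0.943) were also close. Against the mean of the other members, S100a9 (0.941) and Mmp8 (0.928) followed most closely and Csf3r (0.475) and Fpr1 (0.597) least.

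Among 10509 other genes, those whose levels were most like the mean of the members over the same 8 livers included Pear1 (r = 0.980), Hdc (0.977), Ifitm6 (0.972) and Emilin2 (0.970). Hdc encodes the enzyme that makes histamine. Hdc ranged from 5.82 to 9.13 TPM in the WT and from 6.48 to 12.2 TPM in the KO ConA group, and these ranges overlapped.

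Other neutrophil genes were read to see how far the label holds. Of 16 granule and oxidase genes, 11 were tested after ConA, and 10 rose in WT and 11 in KO, with median log2 differences of 1.5 and 2.36, where 22% and 33.9% of all tested genes were higher. Of the tested, 5 in WT and 6 in KO reached 1 TPM in no saline liver and had to differ. Among those that rose were Chil3, a chitinase-like protein (0 to 0.27 TPM in saline livers, and after ConA 10.5 to 18.3 in WT and 9.65 to 43.3 in KO), and Cyba, an oxidase subunit (1.04 in WT, adjusted p = 0.00323, and 1.3 in KO, adjusted p = 0.00316). Lcn2, a siderophore-binding protein that hepatocytes also make in the acute phase, reached 11404 to 18023 TPM after ConA from 26.0 to 95.6 TPM, which is far more than any member. Genes of the first granules, which are transcribed in marrow precursors, were low, and are named here after their values were seen. Mpo was at 0.26 TPM or less, Elane at 0.24 or less and Ctsg at 0.08 or less in all 14 livers. Prtn3, of the same granules, was at 0.09 to 0.35 TPM in saline livers, and after ConA at 0.33 to 1.17 in WT and 0.17 to 0.69 in KO.

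Of 17 surface and receptor genes, 14 were tested. Of these 11 rose in WT and 12 in KO, where 22% and 33.9% of all tested genes did. But 9 and 7 of the tested reached 1 TPM in no saline liver and had to differ. Hcar2, a receptor for nicotinic acid and ketone bodies, rose most in level among the named ones (0 to 0.21 TPM in saline livers, and after ConA 11.7 to 22.3 in WT and 24.8 to 31.6 in KO). The Fc receptors Fcgr3 and Fcgr4 passed the test in KO (1.38 and 1.28, adjusted p = 0.00441 and 0.00807) and did not in WT (0.54 and 0.29, adjusted p = 0.0567 and 0.423). The difference between genotypes did not pass either (interaction adjusted p = 0.251 and 0.235). Ly6g, the surface antigen by which mouse neutrophils are usually sorted, went against the rest and was read for that reason after its values were seen. It was at 0.57, 4.85 and 5.04 TPM in WT saline and 1.61 to 2.31 in KO saline livers, and after ConA at 0.18 to 1.64 in WT and 1.15 to 2.47 in KO. Its difference did not pass the test in either genotype (-1.15, adjusted p = 0.0631, and -0.21, adjusted p = 0.370). WT saline replicates 2 and 3, where it was highest, are the near-identical libraries. Between KO ConA and WT ConA, 0 of 11 granule genes and 0 of 14 surface genes were called, where 0.428% of all tested genes were. Their medians were 0.47 and 0.35.

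The partners of the members were mixed. Timp1, which inhibits both Mmp8 and Mmp9, was at 0 to 0.87 TPM in saline livers, at 17.2, 12.1, 18.9 and 15.9 TPM in WT ConA and at 22.2, 37.7, 60.6 and 29.6 TPM in KO ConA livers. It rose in both genotypes (4.03 in WT, adjusted p = 3.71e-07, and 4.67 in KO, adjusted p = 3.66e-07). All KO ConA livers were above all WT ConA livers, where 6.37% of all tested genes showed that, but the difference of 1.10 did not pass the test (adjusted p = 0.0811). Csf3, which encodes G-CSF, the ligand of Csf3r, was at 0.06 TPM in each WT saline liver, listed at 0 in each KO saline liver, at 1.12, 0.82, 0.77 and 2.21 TPM in WT ConA and at 2.98, 3.48, 14.6 and 6.40 TPM in KO ConA livers. Again the genotypes did not overlap after ConA, and neither the difference of 1.64 (adjusted p = 0.0739) nor the interaction of 1.72 (adjusted p = 0.0577) passed. The receptor Csf3r, in contrast, overlapped between the genotypes.

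Anxa1, which encodes the Fpr2 ligand annexin A1, rose in WT (1.44, adjusted p = 0.00153) and had a difference of 0.63 in KO (adjusted p = 0.110). Its interaction was not called, so the genotypes were not shown to differ in the ConA effect. Anxa1 was at 2.45 to 5.28 TPM in KO saline against 0.65 to 2.27 in WT saline livers (1.23, adjusted p = 0.0369). That comparison includes the near-identical WT libraries. Clec4e, the partner of Clec4d, was listed at 0 in each WT saline liver and reached 2.10 to 3.38 TPM after ConA in WT and 1.67 to 5.59 TPM in KO. Tyrobp, the adaptor of Trem1, was at 7.18 to 13.3 TPM in saline and 6.06 to 22.8 TPM in ConA livers and did not pass the test in either genotype (adjusted p = 0.664 and 0.285). Fcer1g, the adaptor of Clec4d and Clec4e, rose in both (0.95 and 1.10), as did Cebpb, a C/EBP factor (1.17 and 0.87). The receptors for released calprotectin, Tlr4 and Ager, were at 0.67 TPM or less in all livers and were not tested. Of the 14 partner genes, 7 of 10 tested rose in WT, and 7 of 11 rose and 1 fell in KO. Over all tested genes 22% rose in WT, and 33.9% rose and 30.7% fell in KO. Of the tested partners, 2 in WT and 3 in KO reached 1 TPM in no saline liver and had to differ. The partner that fell was Cebpe, a factor of late granulocyte differentiation named after its value was seen. Its levels in WT saline livers were 5.01, 0.07 and 0.07 TPM. Between KO ConA and WT ConA 0 of 11 partners were called, where 0.428% of all tested genes were, with a median of 0.14. In the interaction 1 of 11, again Cebpe, was called as lower, where 2.14% of all tested genes were.

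The genes that draw neutrophils into tissue rose as well. Cxcl1 and Cxcl2 encode chemokines for the receptor Cxcr2, and Icam1 encodes an endothelial ligand of leukocyte integrins. Cxcl1 went from 3.03 to 16.1 TPM in saline livers to 356 to 453 TPM after ConA in WT and 358 to 465 TPM in KO. Icam1 went from 5.78 to 8.43 TPM to 194 to 237 TPM over the 8 ConA livers. For both the genotypes overlapped after ConA, with differences of -0.01 (adjusted p = 0.982) and -0.02 (adjusted p = 0.958). Cxcl2 lay between 36.6 and 208 TPM after ConA in WT and between 44.0 and 98.2 TPM in KO. Of 9 recruitment genes, 4 of 5 tested rose and 1 fell in WT, and 8 of 9 rose in KO. Over all tested genes 22% rose and 31% fell in WT, and 33.9% rose in KO. But 2 of the 5 in WT and 6 of the 9 in KO reached 1 TPM in no saline liver. They entered the test through the ConA livers and had to differ. Between KO ConA and WT ConA the median over the 9 was 0.87, beside 0.05 over all tested genes. Of the 9, 1 was called, where 0.428% of all tested genes were. This was Cxcl3, a further Cxcr2 ligand, named after its value was seen (0.95 ± 0.15, adjusted p = 0.0369). It was at 0.27 to 0.48 TPM in WT against 1.21 to 2.03 TPM in KO livers. Cxcl3 was 1 of 2 recruitment genes that reached 1 TPM in no WT ConA liver. Both entered this test through the KO ConA livers and had to differ, and both count in the median. In the interaction 2 of 9 were called as higher, where 2.64% of all tested genes were. These were Cxcl3 (0.95, adjusted p = 0.0166), again tested only through its KO ConA values, and Sele (1.01, adjusted p = 0.0412). Sele encodes an endothelial selectin and was also named after its value was seen. It was at 0 to 0.03 TPM in saline livers. After ConA it was at 1.31, 0.78, 0.26 and 0.72 TPM in WT and at 1.73 to 3.34 TPM in KO. Sele thus also entered the interaction test mainly through its KO ConA values.

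Marker lists of other cell types moved in both directions after ConA. The summed TPM of 8 monocyte markers was 10.01 to 19.6 in WT saline and 16.01 to 17.4 in KO saline livers, and after ConA 29.0 to 59.2 in WT and 27.3 to 69.7 in KO. Of these markers 3 of 4 tested rose in WT and 2 of 3 in KO, where 22% and 33.9% of all tested genes did. Of the tested, 2 in WT and 1 in KO reached 1 TPM in no saline liver and had to differ. Plac8 and Ly6c2, which inflammatory monocytes carry, rose in both genotypes, Ly6c2 to values between 3.21 and 7.81 TPM in WT and between 1.39 and 7.51 TPM in KO. The 10 Kupffer cell markers summed to 137 to 230 in WT saline and 65.1 to 147 in KO saline livers. After ConA they summed to 25.4 to 93.8 in WT and 19.8 to 84.7 in KO. Of the 10, 9 fell in WT and 4 in KO, beside 31% and 30.7% of all tested genes. In the interaction 0 of 10 were called, where 4.78% of all tested genes were. All 10 had lower estimates in KO saline than in WT saline livers (median -0.56, beside -0.10 over all tested genes), and 0 were called. The 6 hepatocyte markers summed to 102468 to 129610 in saline and 51779 to 80857 in ConA livers. As TPM is a share, a fall of such abundant genes raises the share left to the rest of the library. The part of these cell types in the levels of the members was not tested.

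Further lists were read in the same way. The 10 T and NK cell markers summed to 1.81 to 4.32 TPM in saline livers, and after ConA to 3.81 to 9.25 in WT and 5.97 to 11.3 in KO. Of them Nkg7, a cytotoxic granule gene, rose in both genotypes (0.97 and 1.25), and in WT only 1 gene of the list was tested. Cd3g, also tested in KO, did not pass there (0.07, adjusted p = 0.687). Nkg7 was a large part of the sum after ConA (WT mean 2.355 of 5.77 TPM, KO mean 3.44 of 8.60 TPM). Genes too low to be tested went both ways. In both genotypes the mean after ConA was higher for Lck, and lower for Cd4, which is named after its values were seen. The 5 B cell markers summed to at most 4.24 TPM in any liver. The 5 platelet markers summed to 2.93 to 15.8 TPM in saline and 6.92 to 21.5 TPM in ConA livers. The 5 red cell markers summed to 816 to 3724 TPM in ConA livers and 1623 to 17120 TPM in saline livers, the highest in KO saline replicate 1, which also had the highest sum of the neutrophil markers in its group. The 6 sinusoidal endothelial markers summed to 21.3 to 55.0 TPM in saline and 18.2 to 49.4 TPM in ConA livers. Between KO ConA and WT ConA livers, 0 tested genes of these 8 lists were called, where 0.428% of all tested genes were. Only 1 T and NK cell gene, 3 platelet genes and 0 B cell genes were tested there. The count thus cannot show that the genotypes were alike in these cell types. KO ConA liver 4, the lowest of its group in 8 members, also had the lowest sums of its group for the granule, surface, monocyte, Kupffer cell, T and NK cell, B cell, platelet and endothelial lists, and not for the red cell and hepatocyte lists. The granule sum was nearly all Lcn2, at 11404 of 11462 TPM in this liver, which hepatocytes also make.

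**Figure D5:**
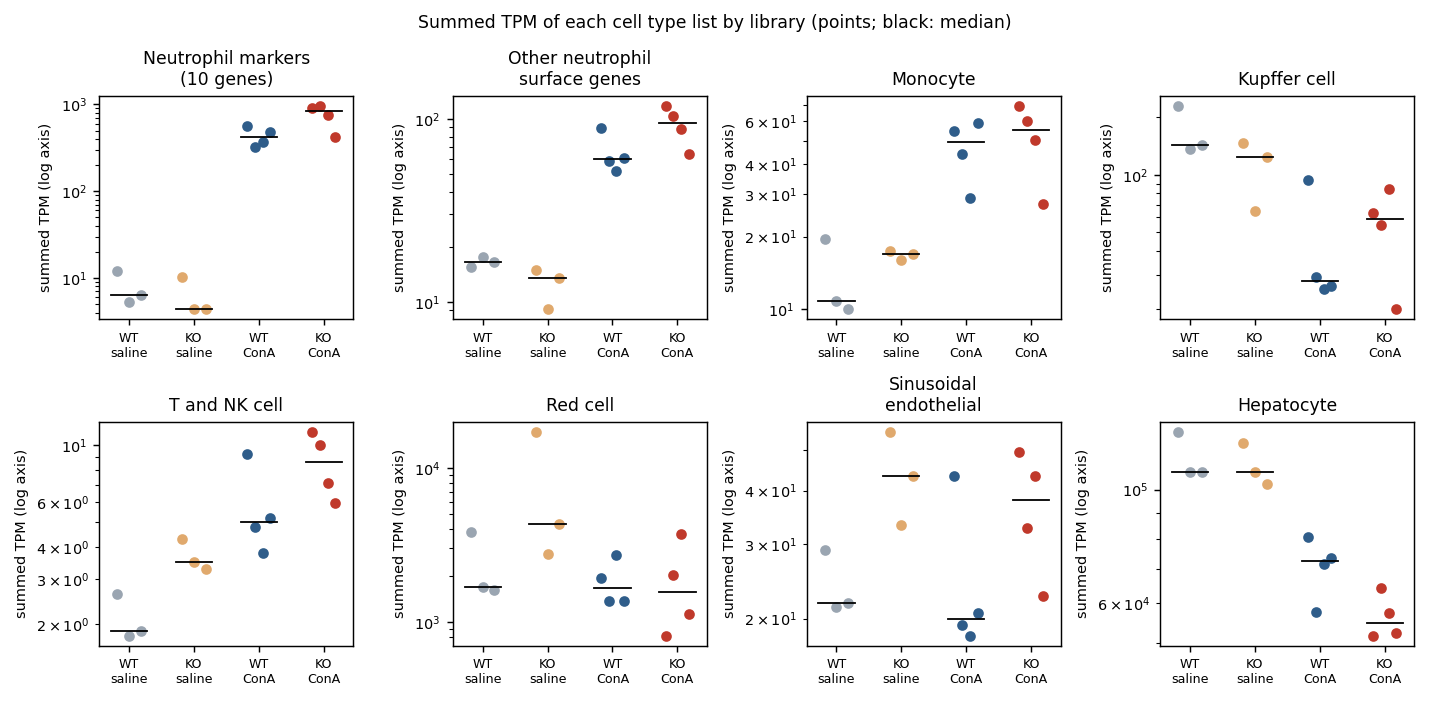
Summed TPM (log axis) of the 10 neutrophil markers, of other neutrophil surface genes and of 6 other cell type lists in each liver, by group, with the group median as a black line. The neutrophil markers run from 4.37 to 12.0 in saline and from 326 to 967 in ConA livers, while the Kupffer cell and hepatocyte lists are lower after ConA.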

How the data were processed

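Liver RNA of 14 mice was sequenced by the authors as single-end reads on a BGISEQ-500. The deposited values are TPM per gene, 1 table per mouse, summing to 1000000 over 17656 genes. The submitters' processing notes name Bowtie2, RSEM 1.3.1 and GRCm38.p6, whereas the study's methods name STAR, HTSeq and edgeR, so the route to TPM remains unclear. As read counts were not used here, the analysis of log2(TPM + 1) used limma 3.58.1 with a mean trend in eBayes (R 4.3.3) in place of a count test. Tested genes reached a TPM of 1 in a number of libraries equal to the smaller group's size. A gene was called when its Benjamini-Hochberg adjusted p over all tested genes was below 0.05. Intervals are 95% limits of the same fit. The procedure was tested on simulated data. Groups came from the sample labels, which state that replicates are independent samples.

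The members, gene lists and tests were chosen with earlier results of these data known. Named are all members, at most the 3 genes of highest mean TPM per list, direct partners of members, and the 5 genes most like them, of which 1 is not reported here. Genes outside this rule are said to be chosen after their values were seen. Alternatives were a pseudocount of 0.1, a TPM filter at 5 or none, rescaled libraries (median ratio to the geometric mean), robust eBayes, a replicate block, 1 fit of all 14 libraries, WT saline replicates 2 and 3 averaged, both ConA libraries numbered 3 left out, and each library left out. Uniqueness of 50-base stretches was computed from GENCODE vM21 transcripts, on both strands. Figures used Python 3.11.15, pandas 2.3.3 and matplotlib 3.10.9. Protein sequences were not used here.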

Additional observations from a re-analysis of the deposited data

Results flagged for a closer look

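Fpr1 in WT ConA liver 1, at 1.45 TPM, stood apart from the other 3 WT ConA livers, at 1.03 to 1.10 TPM, by a gap that exceeded Dixon's 95% limit for 4 samples. About 1 in 20 groups shows such a gap by chance, and 20 groups were examined (10 members in both ConA groups). The same liver was also the highest of its group for S100a8, S100a9, Csf3r, Mmp8, Mmp9, Fpr2 and Clec4d, and had the highest sum of its group for the neutrophil surface, Kupffer cell (93.8 TPM), T and NK cell, B cell, platelet, endothelial and hepatocyte lists. Without it, Fpr1 still did not pass the test between ConA and saline livers in WT.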

How the results depend on the processing

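The number of members called after ConA, 9 in each genotype, was 9 in WT and 8 to 10 in KO when each library was left out, and 9 or 10 under the other alternatives, except that a TPM filter at 5 left 5 (WT) and 4 (KO) members tested and called all of them. In KO saline against WT saline, in KO ConA against WT ConA and in the interaction, 0 members were called under any alternative run. Replicate numbers did not pair the livers. The correlation of same-numbered livers ran from -0.20 to 0.41 over 4 comparisons, in each of which at least 1 pair was below 0.1 and not every liver was closest to its own number. With a replicate block, 9, 9, 0, 0 and 0 members were called in the 5 comparisons, and 140 instead of 45 genes in KO ConA against WT ConA and 358 instead of 541 in the interaction.

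Estimates that changed sign were small ones that never passed the test. Fpr1 in WT (-0.02) was 0.032 after rescaling, 0.0016 without both ConA libraries numbered 3, and -0.13 to 0.062 with single libraries left out. In KO saline against WT saline the single-library ranges were -0.36 to 0.18 for S100a8 and -0.62 to 0.16 for S100a9, and in KO ConA against WT ConA -0.13 to 0.30 for Fpr2 and -0.032 to 0.26 for Trem1. In the interaction, Csf3r (-0.02) was 0.16 with a pseudocount of 0.1, 0.018 with WT saline replicates 2 and 3 averaged, 0.17 without both ConA libraries numbered 3 and -0.23 to 0.18 with single libraries left out. Clec4d (0.01) was -1.05, -0.058 (rescaled), -0.0041 and -0.11 in that order of settings and -0.15 to 0.26, and Trem1 was -0.0033 to 0.29 with single libraries left out. The causes were not tested.

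Counts over all genes moved more. KO saline against WT saline gave 2009 calls (32.8% higher in KO), 1515 after rescaling (49.1% higher), 958 with no filter, 332 in 1 fit of all libraries, 49 with WT saline replicates 2 and 3 averaged and 45 (without WT saline replicate 3) to 2739 (without KO saline replicate 3) with single libraries left out. KO ConA against WT ConA gave 45, but 25 rescaled, 3 with no filter, 640 in 1 fit of all libraries, and 5 (without KO ConA replicate 4) to 52 with single libraries left out. The interaction gave 541, but 345 with no filter, 28 with WT saline replicates 2 and 3 averaged, 1591 without both ConA libraries numbered 3 and 22 (without WT saline replicate 3) to 769. Depth is unknown, so at the low levels of Fpr1, Trem1 and the saline livers the spread between mice is the only measure of error.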
